A study of Mus musculus with 39 samples.

Results

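The stage difference described here is that between intact 4-cell and intact 2-cell mouse embryos. Its members are the 9 libraries made from a whole embryo: 5 embryos at the 2-cell stage (embryos 1 to 5) and 4 embryos at the 4-cell stage (embryos 1, 3, 4 and 5). They are 9 of the 19 embryos of the study, and the other 10 embryos were taken apart and sequenced blastomere by blastomere. All embryos are labelled wild type, all 9 intact ones belong to batch 1, and no treatment is named. Each intact embryo gave 1 Smart-seq2 library, in which an oligo-dT primer captures polyadenylated RNA and full-length cDNA is amplified by PCR before tagmentation. Levels are those of the captured RNA, and the length of poly(A) tails was not measured. Neither strain, age in hours nor litter is given in the labels. The p-values measure a spread between embryos estimated over all 19 of the study, separated ones included, part of which may be technical. No spiked-in standard is named in the labels, so every level is a share of the library, in CPM (counts scaled to the same library total), and less RNA of a gene cannot be told apart from more RNA of the others.

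The mouse embryo starts development on RNA and protein stored in the oocyte. Most of the stored messages are degraded while the genome of the embryo is switched on, with its main wave of transcription in the 2-cell embryo, and the next division gives the 4-cell embryo. Adaptors of the deadenylase complexes shorten the poly(A) tails of maternal messages, which sends them to decay, while newly made transcripts serve protein synthesis, transport and metabolism.

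Totals ran from 7157823 to 9889934 counts in the 2-cell embryos and from 2738253 to 4194087 in the 4-cell embryos, so depth and stage move together. After thinning every embryo to the lowest total, 10036 to 11494 genes had a count in the 2-cell embryos and 11448 to 12006 in the 4-cell embryos. Markers of the stage went with the labels: 8 oocyte and early embryo markers summed to 1378 to 3093 CPM at the 2-cell stage and to 117 to 183 CPM at the 4-cell stage. All 12 cumulus and granulosa cell markers were under 1 CPM on average at both stages, and Amh, Foxl2, Fshr, Cyp19a1, Hsd3b1 and Lhcgr had no count. No blood, sperm or oviduct marker was called between the stages, and their summed levels overlapped (blood 4.39 to 25.1 against 1.81 to 19.3 CPM, sperm 0 to 30.3 against 0 to 3.63 CPM, oviduct 19.25 to 126 against 36.0 to 70.7 CPM). The part of these cells in the results was not tested further.

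Of 14119 genes tested, 1469 (10.4%) were called between the intact stages by edgeR's quasi-likelihood test with Benjamini-Hochberg adjustment at 0.05 over all genes. At the 4-cell stage 764 genes (5.41%) were higher and 705 (4.99%) lower. The balance of rises and falls depended on the setting. In a fit of the intact embryos alone 525 genes were higher and 857 lower, and 1089 of those calls were among the 1469. The median log2 fold change over all genes tested was 0.00, and -0.13 with DESeq2's size factors as the scaling, so changes are relative to that centre. Among genes with more than 3 counts at each stage, 468 rose by a median of 1.98 on the log2 scale and 554 fell by a median of 3.09. Over all calls the order was the other way, with medians of 4.29 for rises and 3.80 for falls. With genes at 0 in a stage set at a bound of 3 counts over that stage, these were 4.03 and 3.74. Whether rises or falls were larger thus depends on how genes with few counts at a stage are treated. More than 4-fold changes made up 229 of those 468 rises and 426 of those 554 falls. A further 192 higher genes had no count in any 2-cell embryo and 86 lower genes had none in any 4-cell embryo; for these a fitted fold change is no measure of size. The embryos of the stages did not overlap in 607 of the higher genes (4.3% of all tested) and 591 of the lower ones (4.19%). The number of calls depended on single embryos: it was 898, 810, 1043 and 798 without 4-cell embryo 1, 3, 4 or 5, and 1061, 1055, 1092, 1113 and 1431 without 2-cell embryo 1, 2, 3, 4 or 5.

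**Figure D1:**
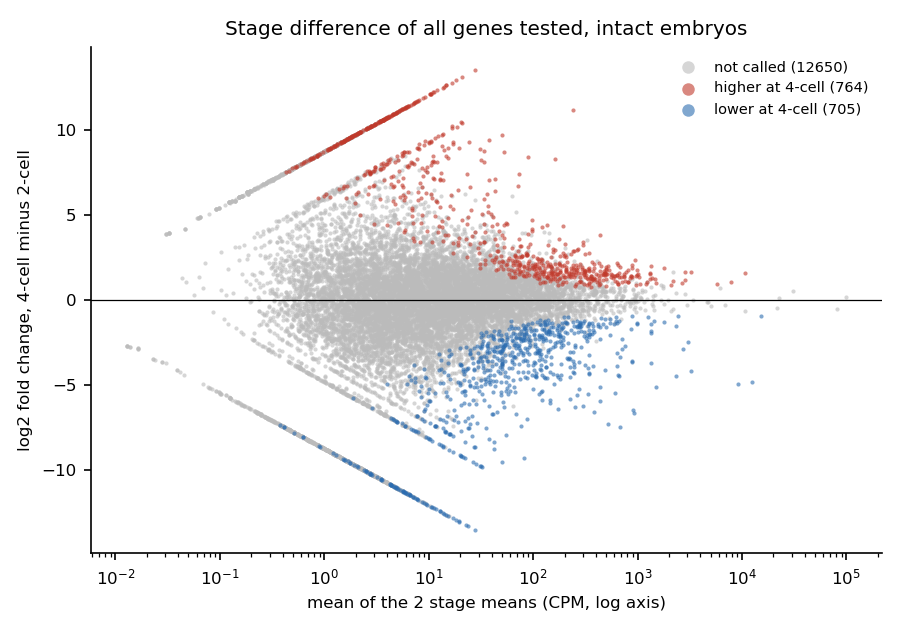
Log2 fold change (4-cell minus 2-cell, y axis) against the mean of the stage means (CPM, log axis) for the 14119 genes tested. Red points are the 764 genes called higher, blue points the 705 called lower and grey points the rest. The fitted fold change of genes without counts at a stage depends on the prior count.

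The 12 largest falls and the 12 largest rises in mean CPM include oocyte genes on the falling side and genes of protein synthesis on the rising side. Omt2b and Omt2a, a pair of oocyte-abundant genes that lie near each other on chromosome 9, were among the largest falls in CPM. Omt2b fell from 23971 ± 8412 to 844 ± 528 CPM and Omt2a from 17629 ± 5603 to 588 ± 98.8 CPM (mean ± SD, n = 5 and 4). The mitochondrially encoded mt-Nd2, a subunit of respiratory complex I, fell from 20192 ± 3525 to 10434 ± 2485 CPM, and Mphosph6, an RNA-binding partner of the nuclear exosome, from 6171 ± 5402 to 342 ± 44.8 CPM. Calm2, a calmodulin gene, went from 5117 ± 1021 to 933 ± 313 CPM, and Mdm4, a negative regulator of p53, from 4773 ± 2471 to 643 ± 123 CPM. On the rising side, Eloc (elongin C, an adaptor of ubiquitin ligases) rose from 5160.0 ± 1774 to 10606 ± 1014 CPM and Rpl41, the smallest ribosomal protein, from 3977 ± 503 to 7587 ± 929.8 CPM. Npm1, the nucleolar histone chaperone nucleophosmin, rose from 1566 ± 459.7 to 4887 ± 705 CPM, Timd2, a membrane receptor for ferritin, from 1392 ± 481 to 4365 ± 1060.2 CPM, and Eif2s2, the beta subunit of initiation factor 2, from 1778 ± 374 to 3966 ± 1070.4 CPM. The prolyl isomerase gene Ppia and the ribosomal protein genes Rps29 and Rpl38 belong to the same group of 12, with log2 fold changes of 1.59, 1.91 and 2.36 (adjusted p = 0.00531, 0.00022 and 0.00276). The metallothionein gene Mt2 rose from 1768 ± 683 to 3533 ± 602 CPM (adjusted p = 0.0428). Mt2 was not called without 2-cell embryo 1, 2 or 3 or 4-cell embryo 1, 3, 4 or 5. Eloc was not called without 4-cell embryo 5.

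Genes were grouped into 61 lists by function, chosen with earlier results of these data known, and counted without a set test. Against 5.41% higher and 4.99% lower over all genes tested, the lists leaned in different directions. Of the lists with at least 30 genes tested, those with the largest excess of higher over lower calls were the regulators of lineage and pluripotency, autophagy, translation initiation, DnaJ co-chaperones, the endosome and lysosome, and one-carbon and amino acid metabolism. Those with the largest excess of lower calls were the oocyte and zygotic 2-cell lists, RNA decay, antioxidant enzymes, BMP and TGF-beta signalling, and RNA polymerase II with its general factors. For the BMP list the excess was not seen in separated embryos (3 higher and 3 lower). For one-carbon and amino acid metabolism it was smaller there (3 higher and 2 lower). Some genes stand in more than 1 list, such as Btg4, Bmp15, Uchl1 and Trim28.

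**Figure D2:**
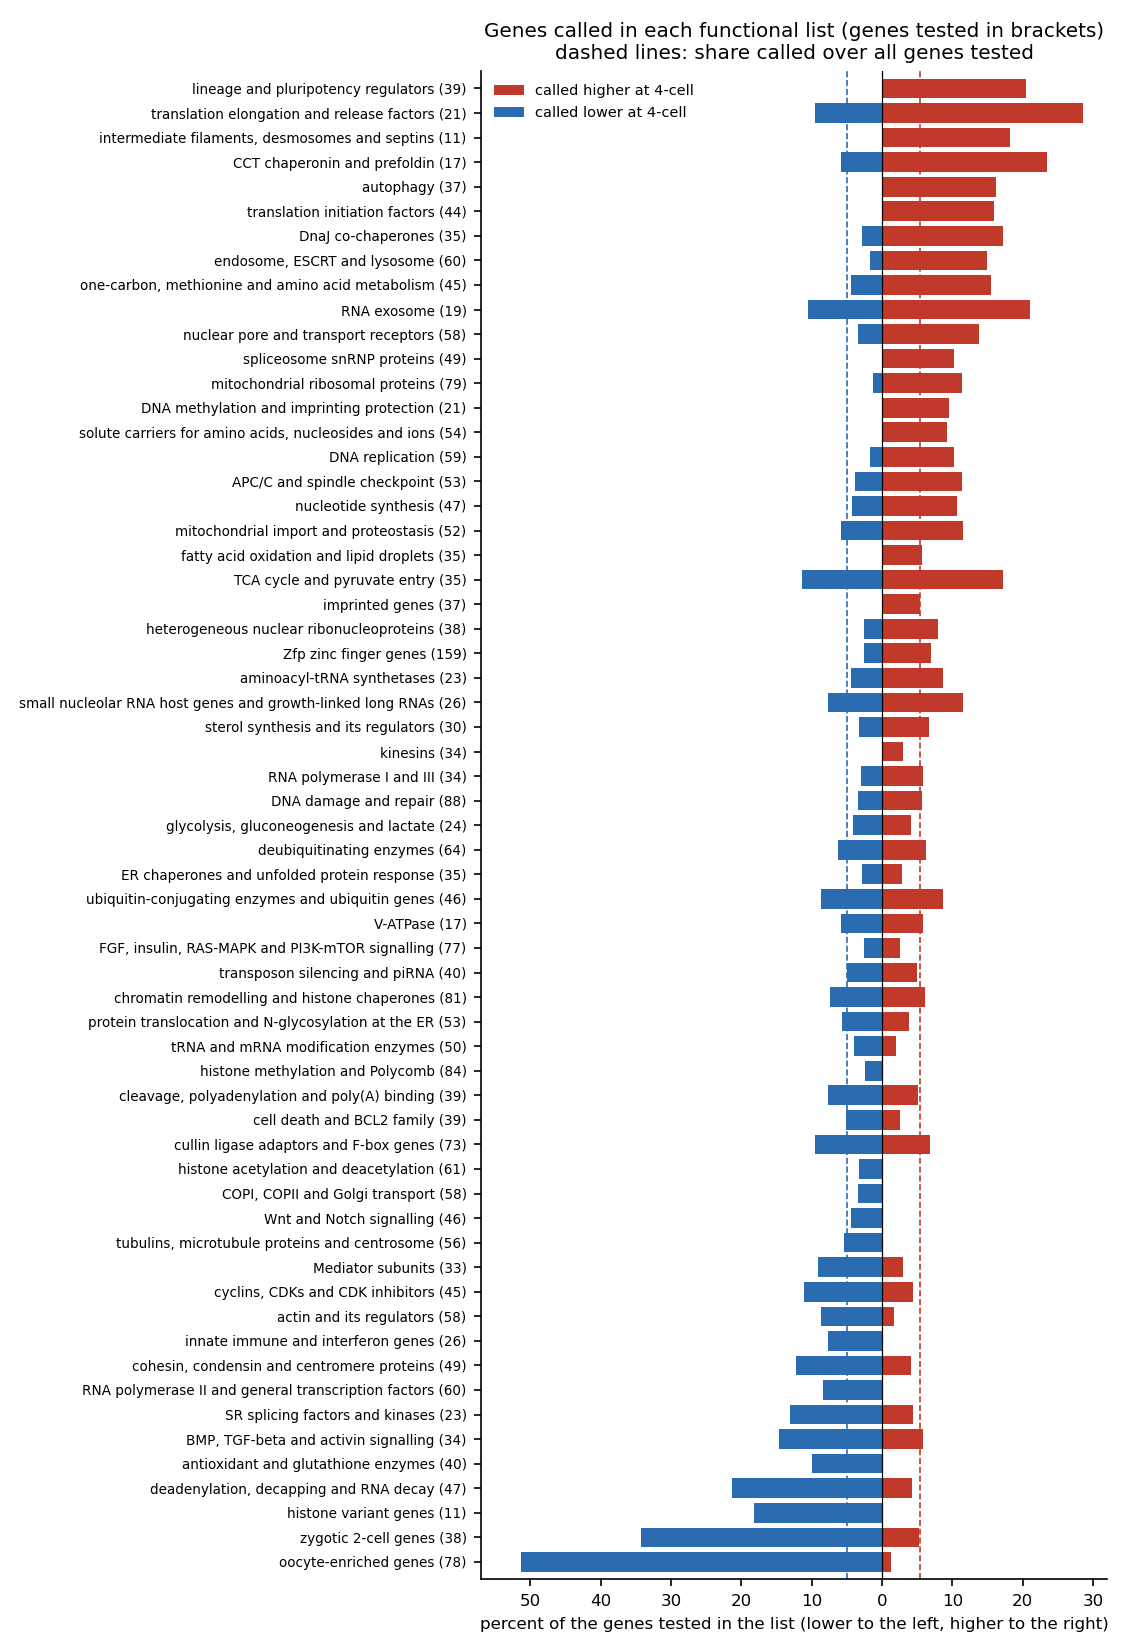
Percent of the genes tested in each of the 61 lists that were called higher (red, to the right) or lower (blue, to the left) at the 4-cell stage, with the number tested in brackets. Dashed lines mark the 5.41% higher and 4.99% lower over all genes. The longest bar is that of the oocyte-enriched genes, 51.28% lower.

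Lists of protein synthesis held more higher than lower calls. Among initiation factors 7 of 44 genes tested were higher and 0 lower (median log2 fold change 0.82; leave-one-out 4 to 9 higher, 0 lower), and their summed level was 7139 to 11089 CPM at the 2-cell and 13626 to 17381 CPM at the 4-cell stage. Eif2s2 stood at 2202, 1407, 1608, 1517 and 2158, then 4586, 4800.0, 2433 and 4046 CPM (log2 fold change 1.16 ± 0.25, adjusted p = 0.0053). Leave-one-out gives the range of calls when 1 intact embryo was left out in turn. Here and below, values of 2-cell embryos 1 to 5 come first, then those of 4-cell embryos 1, 3, 4 and 5, and the error of a fold change is its SE. Every 4-cell embryo was above every 2-cell embryo, and embryo 4 was the lowest of its stage. Eif3a, a core subunit of the factor that holds the small ribosomal subunit, had 209.5, 127, 106, 195 and 246, then 396, 729, 528 and 657 CPM (log2 fold change 1.71 ± 0.35, adjusted p = 0.0045). Eif4g1, the scaffold that joins the cap-binding factor to the ribosome, had 5.40, 13.98, 26.9, 22.1 and 22.5, then 91.4, 66.2, 83.1 and 103 CPM (log2 fold change 2.24 ± 0.44, adjusted p = 0.00292). For all of these the groups did not overlap. In separated embryos the log2 fold change of Eif4g1 was 0.57 (adjusted p = 0.469) and it was not called. Among elongation and release factors 6 of 21 genes tested were higher and 2 lower (median log2 fold change 0.71; leave-one-out 2 to 6 higher, 1 to 2 lower), with a summed level of 1724 to 1979 CPM at the 2-cell and 3236 to 4100.4 CPM at the 4-cell stage. Eef2, which moves the ribosome along the message, had 16.9, 17.3, 1.90, 23.97 and 15, then 131, 130.2, 151 and 122 CPM (log2 fold change 3.15 ± 0.71, adjusted p = 0.0076); embryo 3 was the lowest 2-cell embryo by far. Eef1a1, which delivers charged tRNA, rose from 54.7 ± 20.1 to 206 ± 60.4 CPM (log2 fold change 1.92 ± 0.33, adjusted p = 0.00109). Etf1, which reads the stop codon, rose from 177 ± 16.2 to 382 ± 63.2 CPM (log2 fold change 1.11 ± 0.27, adjusted p = 0.0138). Etf1 was not called without 4-cell embryo 1, 3 or 4.

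Of the tRNA synthetases 2 of 23 genes tested were higher and 1 lower (median log2 fold change 0.81; leave-one-out 0 to 2 higher, 1 lower). Eprs, the glutamyl-prolyl synthetase, had 14.7, 1.97, 7.68, 65.7 and 22.4, then 133, 138, 153 and 94 CPM (log2 fold change 2.52 ± 0.69, adjusted p = 0.0241). Eprs was not called without 2-cell embryo 1 or 3 or 4-cell embryo 1, 3, 4 or 5. The mitochondrial synthetase gene Fars2 fell, with 160.4, 345, 159, 172 and 127, then 8.29, 8.93, 1.96 and 25.4 CPM (log2 fold change -4.11 ± 0.81, adjusted p = 0.00293). Proteins of the mitochondrial ribosome gave 9 higher and 1 lower of 79 tested, with a median log2 fold change of 1.16 and 62 members above 0. Leaving out single embryos gave 2 to 10 higher calls in this list. Mrpl47 of the large subunit had 34.6, 60.4, 43.1, 25.1 and 61.4, then 181, 136, 207 and 106 CPM (log2 fold change 1.81 ± 0.42, adjusted p = 0.00955). Mrpl47 was not called without 4-cell embryo 4. Mrpl19 had no count in any 2-cell embryo and 5.70, 7.81, 10.8 and 5.13 CPM in the 4-cell embryos, at least 97.7-fold higher against a floor of 3 counts over the 2-cell group (adjusted p = 0.00159). For RNA polymerases I and III, which make ribosomal and transfer RNA, 2 of 34 genes tested were higher and 1 lower (median log2 fold change 0.65; leave-one-out 1 to 2 higher, 1 lower). Bdp1, a subunit of the polymerase III initiation factor, had 9.001, 4.93, 33.6, 33.4 and 35.04, then 107, 164, 163 and 159.7 CPM (log2 fold change 2.67 ± 0.59, adjusted p = 0.00686).

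Enzymes that make polyamines, nucleotides and methyl donors included called rises. Odc1, ornithine decarboxylase, which starts polyamine synthesis, stood at 63.98, 61.7, 60.6, 74.4 and 60.0, then 318, 317, 249 and 270.5 CPM (log2 fold change 2.17 ± 0.25, adjusted p = 3.34e-05). Both groups were narrow and lay far apart. Impdh2, the enzyme that commits purine synthesis to guanine nucleotides, had 3.88, 15.9, 44.6, 37.4 and 34.1, then 352, 309, 249.9 and 396 CPM (log2 fold change 3.59 ± 0.49, adjusted p = 0.000152); 2-cell embryo 1 was lowest and no 4-cell embryo came near the 2-cell range. Over nucleotide synthesis 5 of 47 genes tested were higher and 2 lower (median log2 fold change 0.56; leave-one-out 1 to 5 higher, 2 lower). A member that fell was Dut, which removes dUTP, with 454, 862, 399, 422 and 376, then 111, 99.3, 46.7 and 45.7 CPM (log2 fold change -2.73 ± 0.46, adjusted p = 0.00083). In one-carbon, methionine and amino acid metabolism 7 of 45 genes tested were higher and 2 lower (median log2 fold change 0.33; leave-one-out 3 to 6 higher, 1 to 2 lower). Mat2a, which makes the methyl donor S-adenosylmethionine, had 27.1, 62.3, 48.4, 39.4 and 24.6, then 209.8, 189, 212 and 101 CPM (log2 fold change 2.14 ± 0.38, adjusted p = 0.00147). Psat1 of serine synthesis rose from 60.2 ± 29.6 to 238 ± 108 CPM (log2 fold change 1.99 ± 0.39, adjusted p = 0.00275).

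Lists of transport between nucleus and cytoplasm and of protein folding held more higher than lower calls. Of the nuclear pore and transport receptor genes 8 of 58 genes tested were higher and 2 lower (median log2 fold change 0.99; leave-one-out 5 to 11 higher, 1 to 2 lower), and the list summed to 3119.5 to 4267 CPM at the 2-cell and 5761 to 6886 CPM at the 4-cell stage. Xpo1, the main export receptor, stood at 262, 211, 153, 268 and 206, then 542, 609, 709 and 613 CPM (log2 fold change 1.49 ± 0.29, adjusted p = 0.00277). Ipo5, an import receptor, had 73.95, 32.7, 48.7, 126 and 91.03, then 263, 419.6, 264 and 448 CPM (log2 fold change 2.23 ± 0.37, adjusted p = 0.000759). Ranbp1, a partner of the Ran GTPase, had 40.7, 33.9, 30.5, 18.2 and 63.5, then 176, 221, 202 and 195 CPM (log2 fold change 2.41 ± 0.49, adjusted p = 0.00374). In none of these did the stages overlap. The CCT chaperonin, which folds actin and tubulin, and prefoldin gave 4 higher and 1 lower of 17 genes (leave-one-out 1 to 4 higher, 1 lower). Cct4 rose from 65.03 ± 42 to 286 ± 70.7 CPM (log2 fold change 2.13 ± 0.49, adjusted p = 0.009). The prefoldin subunit gene Vbp1 fell from 396 ± 42.01 to 133 ± 50.8 CPM (log2 fold change -1.57 ± 0.31, adjusted p = 0.00279). Hspa8, the constitutive HSP70 chaperone, had 29.6, 31.1, 49.3, 27.4 and 50.2, then 528, 308, 241 and 401 CPM (log2 fold change 3.30 ± 0.44, adjusted p = 0.000117). Of its DnaJ partners 6 of 35 genes tested were higher and 1 lower (median log2 fold change 0.04; leave-one-out 3 to 5 higher, 0 to 1 lower), and Dnajb6 had 68.8, 102, 121, 142 and 119.5, then 429, 417, 287 and 574 CPM (log2 fold change 1.95 ± 0.27, adjusted p = 0.000146). For ER chaperones and the unfolded protein response the calls were 1 higher and 1 lower of 35, both shares under those of all genes. Ppp1r15a, which reverses the stress phosphorylation of initiation factor 2, fell from 76.2 ± 18.9 to 11.1 ± 4.83 CPM (log2 fold change -2.79 ± 0.65, adjusted p = 0.00994).

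In the lysosomal and autophagy lists the higher calls also outnumbered the lower ones. In the endosome, ESCRT and lysosome list 9 of 60 genes tested were higher and 1 lower (median log2 fold change 0.73; leave-one-out 2 to 10 higher, 1 lower), and the sums were 2373 to 3191 CPM at the 2-cell and 4759.9 to 5043 CPM at the 4-cell stage. Ctsa, the protective lysosomal carboxypeptidase cathepsin A, had 16.2, 22.4, 8.28, 40.5 and 19.6, then 152, 162, 74.1 and 207 CPM (log2 fold change 2.80 ± 0.46, adjusted p = 0.000735). Grn, the precursor of the lysosomal granulins, was nearly without counts at the 2-cell stage (0, 0.329, 0.299, 0 and 0.129 CPM) and had 102, 90.8, 9.78 and 68.4 CPM at the 4-cell stage (adjusted p = 0.00908), with embryo 4 far below the other three. The retromer subunit gene Vps29, which serves recycling from endosomes, was the only member called lower, with 206, 136, 341, 213 and 108, then 16.8, 37.95, 24.4 and 23.9 CPM (log2 fold change -2.96 ± 0.66, adjusted p = 0.00754). Of the autophagy genes 6 of 37 genes tested were higher and 0 lower (median log2 fold change 1.05; leave-one-out 2 to 8 higher, 0 to 1 lower). Rb1cc1, which scaffolds the kinase complex that starts autophagy, stood at 276, 254, 402, 274 and 415, then 1162, 865, 736 and 1220.1 CPM (log2 fold change 1.62 ± 0.29, adjusted p = 0.00134). Atg14, a subunit of the lipid kinase that acts next, rose from 83.4 ± 23.2 to 224 ± 46.3 CPM (log2 fold change 1.42 ± 0.37, adjusted p = 0.0188). Atg14 was not called without 4-cell embryo 1, 3 or 5. The cargo receptor gene Tax1bp1 rose from 107 ± 49.4 to 356 ± 70.2 CPM (log2 fold change 1.74 ± 0.39, adjusted p = 0.00774). The summed level of the list, 4068 to 9569.8 CPM at the 2-cell and 10906 to 13026 CPM at the 4-cell stage, is mostly Map1lc3b, which did not pass the test (4624 ± 1467 to 7651 ± 503 CPM, adjusted p = 0.0626). The V-ATPase, which acidifies these compartments, had 1 call in each direction of 17 genes. Atp6v1h fell from 153 ± 70.7 to 20.8 ± 18.8 CPM and Atp6ap1 went from 0.0458 ± 0.0636 to 10.3 ± 6.39 CPM (adjusted p = 0.00492 and 0.00785).

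**Figure D3:**
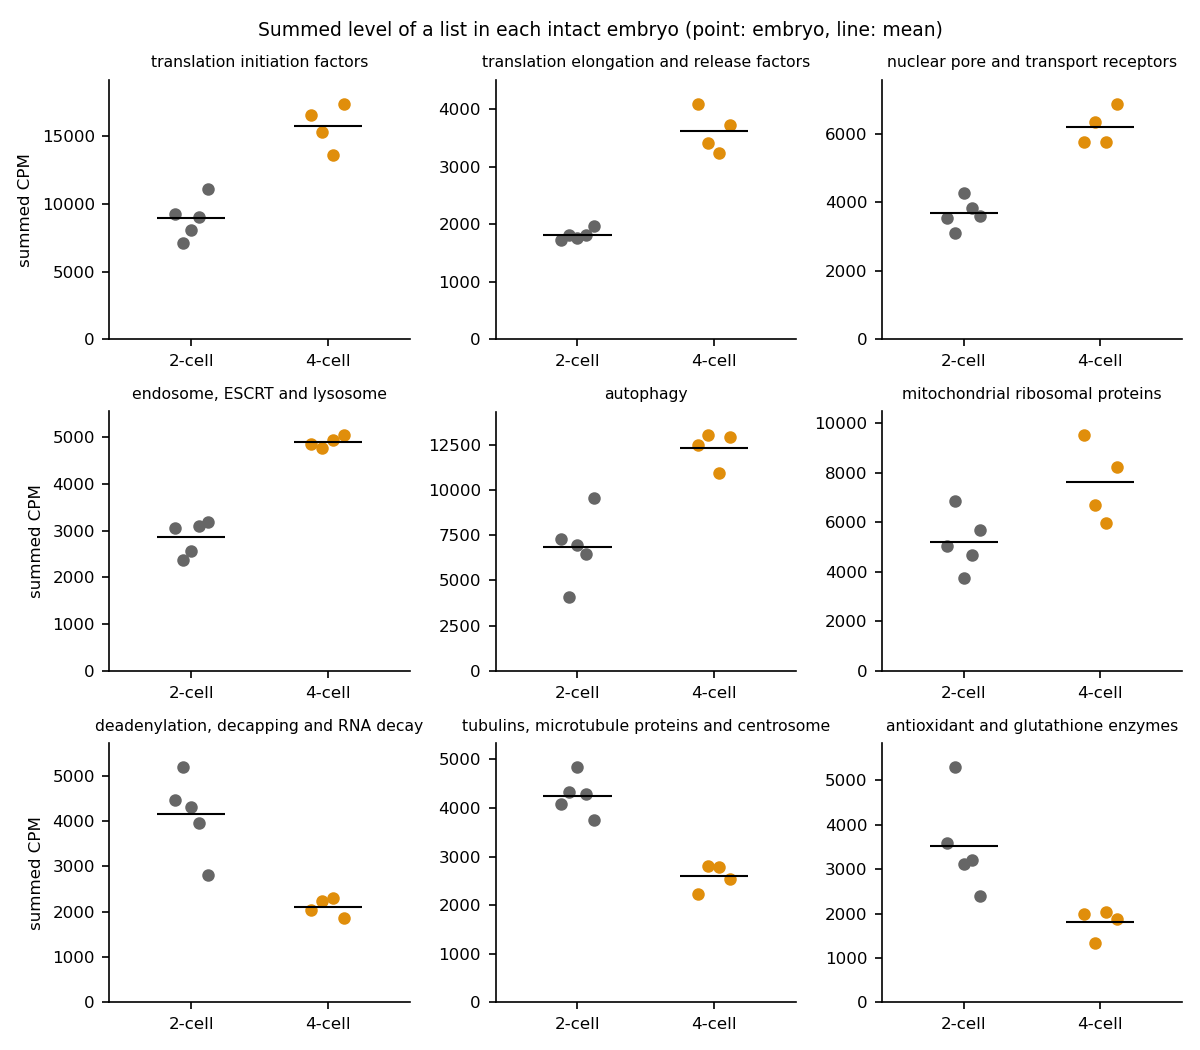
Summed CPM of 9 lists in each intact embryo (points) with the stage mean (line), each panel with its own axis from 0. The sums of 8 of the lists do not overlap between the stages; those of the mitochondrial ribosomal proteins do (3759 to 6857 against 5981 to 9513 CPM).

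Membrane transport and mitochondria showed a mixed picture. Of the solute carriers 5 of 54 genes tested were higher and 0 lower (median log2 fold change 1.03; leave-one-out 3 to 6 higher, 0 to 1 lower). Slc12a2, the sodium-potassium-chloride cotransporter, had 148, 69.1, 114, 138 and 145, then 372, 374, 440.4 and 361 CPM (log2 fold change 1.65 ± 0.39, adjusted p = 0.0112). Slc25a3, which brings phosphate into mitochondria, had 71.6, 53.1, 34.2, 31.1 and 44.1, then 173, 145, 179 and 302 CPM (log2 fold change 2.09 ± 0.41, adjusted p = 0.00311). In mitochondrial import and proteostasis 6 of 52 genes tested were higher and 3 lower (median log2 fold change 0.83; leave-one-out 3 to 8 higher, 2 to 3 lower). Timm17a, a subunit of the inner membrane translocase, had 727, 455, 579, 858 and 1772, then 1954, 1784, 2146 and 2413 CPM (log2 fold change 1.24 ± 0.34, adjusted p = 0.027). Timm17a was not called without 2-cell embryo 1, 2, 3 or 4 or 4-cell embryo 1, 3, 4 or 5. Timm21 of the same translocase fell, with 133, 148, 207, 74.1 and 84.3, then 4.66, 17.9, 19.8 and 15.4 CPM (log2 fold change -3.17 ± 0.51, adjusted p = 0.000678). Immp1l, an inner membrane peptidase subunit, also fell, with 329.9, 984, 317, 505 and 144, then 34.2, 23.1, 20.8 and 20.02 CPM (log2 fold change -4.22 ± 0.51, adjusted p = 5.61e-05). In the TCA cycle 6 of 35 genes tested were higher and 4 lower (median log2 fold change -0.15; leave-one-out 2 to 5 higher, 1 to 3 lower). With the replicate block the calls in this list were 1 and 0, and in separated embryos 1 and 1. Ogdh, which oxidises 2-oxoglutarate, fell from 123 ± 70.4 to 19.3 ± 6.79 CPM (log2 fold change -2.67 ± 0.66, adjusted p = 0.0145). Idh3b, a subunit of NAD-dependent isocitrate dehydrogenase, had 0.139, 0, 0, 0 and 0 CPM at the 2-cell stage and 22.5, 37.95, 31.8 and 6.84 CPM at the 4-cell stage (adjusted p = 0.000133). In separated embryos the log2 fold change of Idh3b was 1.75 (adjusted p = 0.227), so this gene was not called there.

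Glycolysis genes were called in shares near those of all genes (1 higher and 1 lower of 24, or 4.17% each way). Ldhb, a lactate dehydrogenase subunit, fell from 198 ± 87.03 to 47.8 ± 13.3 CPM (log2 fold change -2.05 ± 0.38, adjusted p = 0.00185). The gluconeogenic enzyme gene Fbp2 had 0, 0.164, 0, 0 and 0.129 CPM and then 33.7, 65.5, 6.36 and 30.8 CPM (adjusted p = 0.000475). Antioxidant and glutathione enzymes had no higher call and 4 lower ones of 40, and the count of lower calls was 4 in each fit that left out 1 embryo. Prdx2, a peroxiredoxin that reduces peroxides, stood at 1322, 1845, 1512, 876 and 599, then 113, 34.97, 34.7 and 45.9 CPM (log2 fold change -4.43 ± 0.73, adjusted p = 0.000759). The glutathione transferase genes Gstm5 and Mgst3 fell from 308 ± 184 to 9.94 ± 7.55 CPM and from 202 ± 163 to 10.5 ± 6.52 CPM (log2 fold change -4.96 ± 0.96, adjusted p = 0.00272, and log2 fold change -4.26 ± 0.67, adjusted p = 0.00051). Prdx1, a paralog, did not pass (567 ± 413 to 681 ± 139.5 CPM, adjusted p = 0.743). Insig1, which retains the sterol sensor in the ER, fell from 61.3 ± 17.6 to 2.39 ± 1.51 CPM (log2 fold change -4.67 ± 0.70, adjusted p = 0.000323).

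Genes of RNA decay held more lower than higher calls. Of the deadenylation, decapping and decay genes 2 were higher and 10 lower of 47 tested, or 21.3% against 4.99% over all genes, although the median of the list was -0.03. The sums of the list were 2802 to 5197 CPM at the 2-cell and 1865 to 2293 CPM at the 4-cell stage. Btg4, an adaptor that brings the CCR4-NOT deadenylase to maternal messages, stood at 1429, 1891, 1200.3, 961 and 462, then 81.8, 92.3, 66.3 and 81.3 CPM (log2 fold change -3.89 ± 0.41, adjusted p = 1e-05). Pan3, a subunit of the PAN2-PAN3 deadenylase, had 566, 524, 516, 368 and 201, then 70.4, 49.9, 51.4 and 35.2 CPM (log2 fold change -3.07 ± 0.37, adjusted p = 5.61e-05). Marf1, an RNase of the oocyte, had 30.1, 198, 210.3, 176 and 71.5, then 14.5, 4.09, 24.4 and 22.5 CPM (log2 fold change -3.06 ± 0.59, adjusted p = 0.00262). In all of these embryo 5 or embryo 1 was lowest at the 2-cell stage, and the groups did not overlap. Leaving out single embryos gave 5 to 10 lower calls for this list.

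Proteins that bind the tail moved in both directions. Pabpn1, the nuclear poly(A)-binding protein, fell, with 1480.4, 1962, 2455, 1032 and 1291, then 54.1, 135, 216 and 143 CPM (log2 fold change -3.58 ± 0.39, adjusted p = 1.31e-05). Paip1, which ties the cytoplasmic poly(A)-binding protein to initiation, had 753, 1065, 618, 746 and 289, then 77.2, 39.8, 29.1 and 45.4 CPM (log2 fold change -3.86 ± 0.39, adjusted p = 7.84e-06). Pabpc1, that cytoplasmic poly(A)-binding protein, rose instead, with 104, 57.4, 82.1, 166 and 205, then 361, 318, 417 and 232 CPM (log2 fold change 1.43 ± 0.35, adjusted p = 0.0131). Pabpc1 was not called without 4-cell embryo 1, 3 or 4. Larp4, which binds poly(A) and Pabpc1 and protects tails, had 394, 309, 368, 392.5 and 259, then 1586, 1533, 1177 and 1427 CPM (log2 fold change 2.05 ± 0.26, adjusted p = 7.11e-05). The RNA exosome list gave 4 higher and 2 lower of 19 (leave-one-out 2 to 4 higher, 1 to 2 lower). Exosc2 of the exosome cap had 0.277, 20.7, 2.49, 9.43 and 2.97, then 109.5, 306, 208 and 133 CPM (log2 fold change 4.72 ± 0.97, adjusted p = 0.00433). Mphosph6 had 7999, 14779.9, 3890.1, 2718 and 1467, then 389, 312, 296 and 369 CPM (log2 fold change -4.17 ± 0.60, adjusted p = 0.000221). Of the 50 modification enzymes 1 was called higher and 2 lower, a share of lower calls under that of all genes, and 35 had a fold change above 0 (median 0.97; leave-one-out 1 to 4 higher, 2 to 3 lower). The lower ones were Wtap, of the m6A writer complex, from 2113 ± 536 to 559 ± 218 CPM (log2 fold change -1.92 ± 0.31, adjusted p = 0.000589) and Alkbh5, an m6A eraser, from 117 ± 45.3 to 9.40 ± 8.38 CPM (log2 fold change -3.63 ± 0.71, adjusted p = 0.00294). The higher one, the pseudouridine synthase gene Trub1, had no count in the 2-cell embryos and 15.02, 2.98, 7.58 and 9.03 CPM in the 4-cell embryos (adjusted p = 0.0167), and was not called in separated embryos (adjusted p = 0.592).

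Subunits of the transcription machinery were called mostly in the falling direction. For RNA polymerase II and its general factors no gene was higher and 5 of 60 were lower, with 5 lower and 0 to 2 higher when single embryos were left out, although 33 members had a fold change above 0. Polr2g, a subunit of the polymerase, had 208, 570.0, 364, 393 and 85.5, then 57.2, 82.2, 52.3 and 65.9 CPM (log2 fold change -2.33 ± 0.52, adjusted p = 0.0076). Gtf2a1, a subunit of TFIIA, had 163, 139, 107, 132 and 104, then 58.5, 49.5, 42.5 and 42.2 CPM (log2 fold change -1.42 ± 0.32, adjusted p = 0.0077). The summed level of the list overlapped between stages (9155 to 11053 CPM at the 2-cell and 9489 to 10815 CPM at the 4-cell stage). Of the Mediator subunits 1 of 33 genes tested were higher and 3 lower (median log2 fold change -0.16; leave-one-out 0 to 1 higher, 2 to 4 lower). Med31 fell from 742 ± 166 to 348 ± 95.8 CPM and Med6 rose from 229.9 ± 88.7 to 531 ± 49.7 CPM (adjusted p = 0.016 and 0.0104). Med6 was not called without 4-cell embryo 3 or 5. Core snRNP proteins had 5 higher and no lower call of 49, among them Sf3b1, which recognises the branch point (179, 142, 69.5, 112 and 244, then 451, 424, 381 and 585 CPM; log2 fold change 1.62 ± 0.30, adjusted p = 0.00199). SR proteins and their kin had 1 higher and 3 lower of 23, among them Tra2b, a regulator of exon inclusion, which fell (668, 692, 717, 375 and 272, then 89.3, 97.1, 202 and 169 CPM; log2 fold change -1.97 ± 0.44, adjusted p = 0.0076). The hnRNP list had 3 higher and 1 lower of 38 (leave-one-out 0 to 3 higher, 0 to 1 lower).

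**Figure D4:**
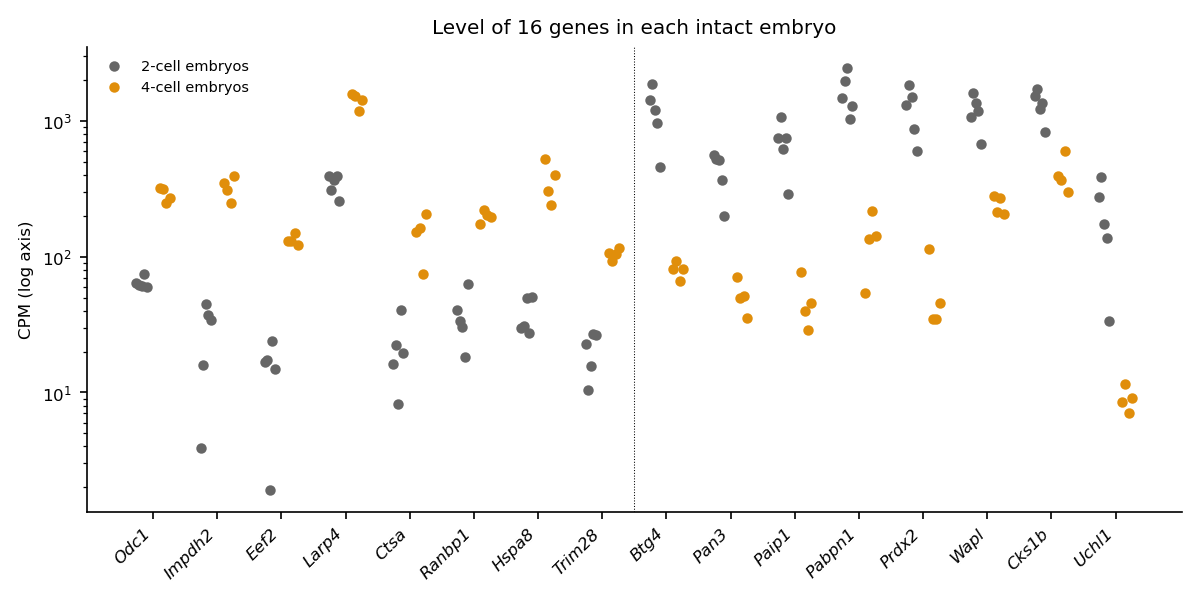
CPM (log axis) of 16 genes in each intact embryo, grey for the 5 embryos at the 2-cell stage and orange for the 4 at the 4-cell stage. The 8 genes left of the dotted line rose and the 8 to the right fell, and in none of them do the stages overlap.

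Cell cycle genes were called in both directions. Cks1b, the small subunit that cyclin-dependent kinases need to bind phosphorylated targets, stood at 1518, 1731, 1219, 1351 and 837, then 391, 367, 599 and 301 CPM (log2 fold change -1.68 ± 0.25, adjusted p = 0.000352). The phosphatase gene Cdkn3 stood at 269.9, 270.3, 390.5, 139.5 and 202, then 27.7, 46.1, 55.8 and 10.7 CPM (log2 fold change -2.86 ± 0.45, adjusted p = 0.000525). Over cyclins, CDKs and their inhibitors 2 of 45 genes tested were higher and 5 lower (median log2 fold change -0.36; leave-one-out 1 to 2 higher, 3 to 4 lower). Pttg1 (securin, which guards separase) fell from 2082 ± 849 to 595 ± 138 CPM (log2 fold change -1.81 ± 0.31, adjusted p = 0.000971). Anapc10, a subunit of the anaphase-promoting complex, rose, with 204, 154, 106, 121 and 230.2, then 697, 764, 356 and 606 CPM (log2 fold change 1.89 ± 0.32, adjusted p = 0.00104). Arpp19, a phosphatase inhibitor that acts at mitotic entry, also rose, with 144, 199.6, 66.9, 97.5 and 173, then 469.8, 447, 377 and 329 CPM (log2 fold change 1.57 ± 0.36, adjusted p = 0.00795). The list of the anaphase-promoting complex and spindle checkpoint held 6 higher and 2 lower of 53 (leave-one-out 2 to 6 higher, 1 to 2 lower). For DNA replication 6 of 59 genes tested were higher and 1 lower (median log2 fold change 0.41; leave-one-out 4 to 6 higher, 1 to 3 lower). Cdc6 and Cdt1, which license origins, were both higher. Cdc6 had 18.97, 44.4, 35.2, 40.8 and 36.6, then 216, 238, 57.95 and 243 CPM (log2 fold change 2.42 ± 0.44, adjusted p = 0.00173). Cdt1 had 39.3, 13.8, 33.6, 26.6 and 17.1, then 116, 118, 72.9 and 132 CPM (log2 fold change 2.07 ± 0.47, adjusted p = 0.00834). In 4-cell embryo 4 both were lowest, and Cdc6 there was close to the 2-cell range.

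Lists of chromosome structure, microtubules and actin held more lower than higher calls in intact embryos, while kinesins had 1 higher and 0 lower of 34 and intermediate filaments, desmosomes and septins 2 and 0 of 11. Of the cohesin, condensin and centromere genes 2 of 49 genes tested were higher and 6 lower (median log2 fold change 0.01; leave-one-out 1 to 3 higher, 3 to 6 lower). Wapl, which releases cohesin from chromatin, had 1065, 1612, 1364, 1193 and 677, then 279.7, 214, 271 and 205 CPM (log2 fold change -2.29 ± 0.31, adjusted p = 0.000146). The condensin II subunit gene Ncapg2 fell from 258 ± 23 to 83.7 ± 18.7 CPM (log2 fold change -1.63 ± 0.35, adjusted p = 0.00531). Tubulins and microtubule proteins had no higher and 3 lower calls of 56. That is 5.36% lower, near the 4.99% over all genes. Their sums were 3746 to 4851 CPM at the 2-cell and 2223 to 2808 CPM at the 4-cell stage. Dynll1, the light chain of dynein and the most abundant member, stood at 2002, 1456, 2528, 1691 and 2122, then 556, 729, 771 and 853 CPM (log2 fold change -1.43 ± 0.25, adjusted p = 0.00126). Tbca, a tubulin folding cofactor, fell from 498 ± 214 to 113 ± 62.9 CPM (log2 fold change -2.14 ± 0.44, adjusted p = 0.0045). Among actin and its regulators 1 of 58 genes tested were higher and 5 lower (median log2 fold change 0.25; leave-one-out 0 to 2 higher, 3 to 5 lower). Fmn2, a formin that builds the actin mesh of the oocyte, had 59.5, 72.5, 45.5, 99.8 and 45.6, then 4.66, 5.95, 14.4 and 0.244 CPM (log2 fold change -3.35 ± 0.81, adjusted p = 0.0117). The GTPase gene Rhoa rose from 89.7 ± 21.3 to 209 ± 44.6 CPM (log2 fold change 1.22 ± 0.30, adjusted p = 0.0133). Rhoa was not called without 4-cell embryo 1 or 5.

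Chromatin lists differed in their calls. Histone methylation and Polycomb gave no higher and 2 lower of 84 genes. That is 2.38% lower, and for histone acetylation 3.28%, both under the 4.99% over all genes. Rnf2, the ubiquitin ligase of Polycomb complex 1, fell from 284 ± 56.1 to 92.99 ± 9.38 CPM (log2 fold change -1.61 ± 0.32, adjusted p = 0.00294). Its partner Bmi1 fell from 681 ± 196 to 258 ± 126 CPM (log2 fold change -1.40 ± 0.35, adjusted p = 0.0141), with overlap of the stages for Bmi1. Histone acetylation gave no higher and 2 lower of 61, the germ line bromodomain gene Brdt (912, 1258, 941, 563 and 705, then 146, 208, 295 and 201 CPM; log2 fold change -2.04 ± 0.40, adjusted p = 0.00301) and Sap30 of the SIN3 complex (log2 fold change -1.70 ± 0.51, adjusted p = 0.0394). Sap30 was not called without 2-cell embryo 1, 3 or 5 or 4-cell embryo 1, 4 or 5. Both H2A.Z genes fell, H2az1 from 1420.0 ± 182 to 568 ± 115 CPM and H2az2 from 405 ± 126 to 149 ± 35.1 CPM (adjusted p = 0.000748 and 0.0113). In remodellers and histone chaperones 5 of 81 genes tested were higher and 6 lower (median log2 fold change 0.56, leave-one-out 2 to 5 higher, 4 to 7 lower). That is 6.17% higher and 7.41% lower, against 5.41% and 4.99% over all genes. The histone chaperone genes Npm1 and Set rose, with log2 fold changes of 1.64 ± 0.27 and 1.28 ± 0.23 (SE). Hmgn3, a nucleosome-binding protein, fell, with 277, 451, 342, 329 and 83.3, then 14.5, 2.60, 23.2 and 16.9 CPM (log2 fold change -4.37 ± 0.76, adjusted p = 0.00123). Trim28, the corepressor of KRAB zinc finger proteins that keeps imprints methylated, stood at 22.9, 10.4, 15.6, 26.9 and 26.4, then 106, 93, 104 and 115 CPM (log2 fold change 2.36 ± 0.45, adjusted p = 0.00254). Tet1, which oxidises methylcytosine, stood at 15.9, 8.06, 56.7, 30.8 and 4.91, then 118, 189, 188 and 103 CPM (log2 fold change 2.68 ± 0.60, adjusted p = 0.00757). In separated embryos Trim28 and Tet1 had log2 fold changes of 0.73 and 0.83 (adjusted p = 0.332 and 0.423), neither of them called. The histone gene H4c4 had 83.4, 56.1, 45.2, 25.3 and 77.1, then 1260.2, 1145, 258 and 613 CPM (log2 fold change 3.83 ± 0.50, adjusted p = 9.02e-05), with embryo 4 the lowest at its stage. These values cover only H4c4 RNA captured by oligo-dT and may not stand for all RNA of this histone gene.

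Ubiquitin genes and ligase adaptors were called in both directions. The shares were 6.25% each way for deubiquitinating enzymes and 8.7% each way for ubiquitin and its conjugating enzymes. For cullin adaptors and F-box genes they were 6.85% higher and 9.59% lower. Over all genes 5.41% were higher and 4.99% lower. Uchl1, a deubiquitinating enzyme abundant in oocytes, stood at 276, 384, 175, 138 and 33.4, then 8.55, 11.5, 7.09 and 9.03 CPM (log2 fold change -4.48 ± 0.64, adjusted p = 0.000201). Deubiquitinating enzymes as a list gave 4 higher and 4 lower of 64 (leave-one-out 1 to 5 higher, 2 to 4 lower), and ubiquitin with its conjugating enzymes 4 and 4 of 46 (leave-one-out 1 to 4 higher, 2 to 3 lower). Ubb, a polyubiquitin gene, fell from 654 ± 186 to 223 ± 54.5 CPM (log2 fold change -1.55 ± 0.30, adjusted p = 0.00264). Nedd8, whose product activates cullin ligases, rose from 224 ± 42.3 to 548 ± 66.8 CPM (log2 fold change 1.29 ± 0.25, adjusted p = 0.00272). Of the cullin adaptors and F-box genes 5 were higher and 7 lower of 73 (leave-one-out 2 to 5 higher, 5 to 7 lower). Fbxo15, an F-box gene of pluripotent cells, had 376, 490.0, 424, 693 and 705, then 2193, 1779, 1762 and 2984 CPM (log2 fold change 2.02 ± 0.25, adjusted p = 6.78e-05). Klhl9, an adaptor of cullin 3, had 233, 239.6, 137, 215 and 143, then 19.4, 11.9, 25.7 and 32.96 CPM (log2 fold change -3.10 ± 0.40, adjusted p = 8.20e-05).

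In BMP, TGF-beta and activin signalling 2 of 34 genes tested were higher and 5 lower (median log2 fold change 0.13; leave-one-out 1 to 2 higher, 2 to 5 lower). The ligand genes fell: Bmp15, an oocyte growth factor, had 235, 659, 178, 321 and 36.2, then 2.33, 1.12, 11 and 2.93 CPM (log2 fold change -6.02 ± 1.08, adjusted p = 0.00152). Tgfb2 had 165, 647, 259, 143 and 24.96, then 9.58, 11.9, 1.71 and 18.1 CPM (log2 fold change -4.59 ± 0.89, adjusted p = 0.00272). Embryo 2 of the 2-cell stage was the highest for both and embryo 5 the lowest. For Wnt and Notch the calls were 0 higher and 2 lower of 46: Lef1, a nuclear effector of Wnt, had 82.7, 119.6, 28.02, 52.6 and 25.9, then 0.777, 0, 0 and 6.59 CPM (log2 fold change -5.04 ± 1.36, adjusted p = 0.0232). Lef1 was not called without 4-cell embryo 1 or 3. For FGF, insulin, RAS and mTOR signalling there were 2 higher and 2 lower of 77. Igf2r, the imprinted receptor that clears IGF2, rose from 13.5 ± 9.40 to 111 ± 44.8 CPM (log2 fold change 3.04 ± 0.75, adjusted p = 0.014). Igf2r was not called without 4-cell embryo 5. Dusp7, a phosphatase of MAP kinases, fell from 61.7 ± 25.5 to 4.45 ± 3.33 CPM (log2 fold change -3.80 ± 0.68, adjusted p = 0.00147). Among BCL2 family and cell death genes Mcl1, which blocks apoptosis, rose, with 52.2, 22.5, 58.6, 19.08 and 44.7, then 148, 196, 184 and 235 CPM (log2 fold change 2.27 ± 0.47, adjusted p = 0.00404). Bcl2l10, its relative in oocytes, fell, with 263, 528, 216, 148 and 157, then 3.11, 22.7, 2.44 and 16.4 CPM (log2 fold change -4.56 ± 0.83, adjusted p = 0.00164). Ifitm3, an interferon-induced membrane protein, had 109, 211, 101, 70.8 and 10.2 CPM at the 2-cell stage and 0, 0, 0.489 and 0 CPM at the 4-cell stage (adjusted p = 0.000463). Of the regulators of lineage and pluripotency 8 of 39 genes tested were higher and 0 lower (median log2 fold change 1.04; leave-one-out 7 to 10 higher, 0 lower). Nr5a2, a nuclear receptor of early embryos, had 28.8, 48.4, 38.1, 58.2 and 45.3, then 337, 288, 156 and 237 CPM (log2 fold change 2.54 ± 0.37, adjusted p = 0.00022).

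The oocyte-enriched genes formed the largest fall, with 40 lower and 1 higher of 78 tested (median log2 fold change -3.31), and the zygotic 2-cell list had 13 lower and 2 higher of 38. The 2-cell embryos differed in how much of them they held. Embryo 2 was the highest 2-cell embryo for 36 of the 40 oocyte-enriched genes called lower, and embryo 5 was the lowest for 30 of the 40. Over all 591 lower genes without overlap, embryo 2 was highest in 330 and embryo 5 lowest in 297. Embryo 2 also had the largest mitochondrial share (33.1%) and embryo 5 the smallest (22.6%) among the 2-cell embryos. At the 4-cell stage embryo 4 was the lowest for 294 of the 607 higher genes without overlap. Beside the best known members, Tesc, a calcium-binding protein gene, stood at 550.1, 767, 618, 322 and 341, then 7.25, 12.7, 8.80 and 14.7 CPM (log2 fold change -5.58 ± 0.50, adjusted p = 1.66e-06). Rfpl4b, a RING finger protein gene of the same stages, had 1067, 1289.6, 1061, 907 and 863, then 1.81, 10.4, 5.38 and 9.52 CPM (log2 fold change -7.26 ± 0.65, adjusted p = 1.66e-06). Spin1, a histone code reader that oocytes need in meiosis, had 2648, 4153, 2929.7, 1721 and 991, then 192, 177, 201 and 212 CPM (log2 fold change -3.67 ± 0.37, adjusted p = 7.59e-06). Scoc, a Golgi coiled-coil gene, had 442, 443, 463, 226 and 343, then 48.95, 40.5, 29.1 and 23.9 CPM (log2 fold change -3.43 ± 0.36, adjusted p = 1e-05).

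Several of the falling families lie in clusters of neighbouring copies. Windows of 10 neighbouring tested genes with at least 6 called lower were found on chromosomes 6, 7, 9, 12 and 13, and no window reached 6 higher calls. This and the families below were picked after their values were seen and are a description. The Tcl1 family on chromosome 12 (105146014 to 105222793, GRCm38) had 6 of 6 tested genes lower, and summed to 1059 to 12638 CPM in the 2-cell embryos and 58.03 to 75.1 CPM in the 4-cell embryos. Tcl1, a coactivator of the AKT kinase, had 3195, 3423, 1142, 1008 and 418, then 18.4, 23.8, 16.1 and 15.9 CPM (log2 fold change -6.63 ± 0.60, adjusted p = 1.66e-06). Tcl1b1 had 2355, 3929.9, 1437, 1005 and 209, then 31.6, 16.4, 28.4 and 3.42 CPM (log2 fold change -6.49 ± 0.86, adjusted p = 0.000107). Of the numbered Obox homeobox genes on chromosome 7 4 of 7 were lower and 1 higher: Obox5 had 1646, 1843, 1169, 867 and 845, then 58.3, 61.8, 26.9 and 85.95 CPM (log2 fold change -4.45 ± 0.47, adjusted p = 1e-05). Obox3 had 702, 464, 556, 305 and 472, then 8.03, 0, 11.2 and 5.62 CPM (log2 fold change -6.31 ± 0.78, adjusted p = 5.81e-05). The copy Obox8 rose, with 616, 283, 569, 343 and 830.3, then 1702, 1610.4, 1146 and 1594 CPM (log2 fold change 1.52 ± 0.33, adjusted p = 0.0062). Obox pseudogenes of the same region had 6 lower of 8. The F-box genes Fbxw13 to Fbxw28 on chromosome 9 had 6 lower of 15, all 15 with a fold change below 0. Copies this alike share reads, and how RSEM divided those among them cannot be checked here, so the values of single copies are uncertain.

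The copies also share sequence before their starts, shown here because these are the genes that fell side by side. The 120 bases before the start are given 5′ to 3′ from RefSeq (GRCm38.p6), with the longest run common to the copies shown in capitals. The run of the 5 Tcl1b genes is 25 bases long and starts between 28 and 57 bases before the start. Among all 32851 promoters of the table, on either strand, it was found in 5 (0.0152%), those of the 5 Tcl1b genes.
Tcl1b1: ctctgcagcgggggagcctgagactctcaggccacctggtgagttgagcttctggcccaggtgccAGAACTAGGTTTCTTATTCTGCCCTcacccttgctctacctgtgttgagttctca
Tcl1b2: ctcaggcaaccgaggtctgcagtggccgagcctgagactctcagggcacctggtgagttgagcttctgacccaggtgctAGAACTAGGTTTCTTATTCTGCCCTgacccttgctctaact
Tcl1b3: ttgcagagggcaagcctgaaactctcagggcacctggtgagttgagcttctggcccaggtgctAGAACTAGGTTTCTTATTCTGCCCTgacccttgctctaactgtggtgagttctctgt
Tcl1b4: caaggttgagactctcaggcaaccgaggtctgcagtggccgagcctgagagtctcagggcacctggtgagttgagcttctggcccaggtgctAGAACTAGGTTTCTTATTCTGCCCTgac
Tcl1b5: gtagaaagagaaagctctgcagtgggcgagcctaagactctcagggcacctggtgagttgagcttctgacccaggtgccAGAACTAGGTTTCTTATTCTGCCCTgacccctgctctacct
They lie on the plus strand of chromosome 12, for Tcl1b1 at chr12:105159584-105159703, and their genes had log2 fold changes of -6.49, -5.95, -6.55, -6.23 and -6.28.

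Of the falling Obox genes, Obox1, Obox3 and Obox5 share another run of 25 bases, which starts 98 to 110 bases before the start and was found in 5 promoters (0.0152%), those of Obox1, Obox2, Obox3, Obox5 and Obox7.
Obox1: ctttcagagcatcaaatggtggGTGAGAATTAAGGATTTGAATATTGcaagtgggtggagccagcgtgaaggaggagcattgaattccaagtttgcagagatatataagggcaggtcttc
Obox3: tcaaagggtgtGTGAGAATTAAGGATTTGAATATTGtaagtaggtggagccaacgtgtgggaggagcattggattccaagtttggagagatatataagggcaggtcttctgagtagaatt
Obox5: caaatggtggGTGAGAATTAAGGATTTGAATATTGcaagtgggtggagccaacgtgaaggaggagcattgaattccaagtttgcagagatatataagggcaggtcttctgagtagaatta
Obox1 lies at chr7:15547137-15547256 on the plus strand, Obox3 at chr7:15639778-15639897 on the minus strand and Obox5 at chr7:15750250-15750369 on the plus strand. Obox7 carries the run and was not called (log2 fold change -4.01 ± 1.78, SE; adjusted p = 0.146). Of the F-box genes, the 4 lower members shown share 16 bases that start 29 to 34 bases before the start and were found in 10 promoters (0.0304%) of 9 genes, all of the Fbxw cluster. Fbxw18, also lower, carries the run, the lower Fbxw23 is not among the carriers, and Fbxw15, Fbxw19, Fbxw21 and Fbxw25 carry it without being called.
Fbxw14: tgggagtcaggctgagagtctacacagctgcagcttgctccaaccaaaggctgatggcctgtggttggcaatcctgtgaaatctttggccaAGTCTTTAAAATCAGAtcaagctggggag
Fbxw16: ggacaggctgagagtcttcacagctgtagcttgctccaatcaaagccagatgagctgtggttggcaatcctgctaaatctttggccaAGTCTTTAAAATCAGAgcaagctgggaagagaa
Fbxw24: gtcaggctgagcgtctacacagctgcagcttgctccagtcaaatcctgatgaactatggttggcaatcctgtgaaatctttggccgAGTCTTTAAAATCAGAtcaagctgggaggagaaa
Fbxw28: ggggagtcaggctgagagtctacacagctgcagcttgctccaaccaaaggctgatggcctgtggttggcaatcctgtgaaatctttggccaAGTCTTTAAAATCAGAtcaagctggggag
All 4 lie on the minus strand of chromosome 9, for Fbxw14 at chr9:109287677-109287796, with log2 fold changes of -3.04, -2.25, -2.40 and -2.84. A shared run is a description of these copies and no binding site is claimed.

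By annotated class, 5.6% of protein-coding genes were higher and 4.89% lower, against 2.94% and 19.6% of the 102 unprocessed pseudogenes and 4.23% and 9.4% of the 638 lincRNAs. For the TEC class (loci awaiting experimental evidence) the order was the other way, with 12.8% higher and 1.13% lower of 265. By chromosome, the share of lower genes was largest on chromosome 12 (8.02% of 549) and that of higher genes smallest on the X chromosome (2.13% of 469). The lower genes of chromosome 12 include clusters of neighbouring copies, among them the 6 genes of the Tcl1 family. The median GC content of the 3′ untranslated region was 39.9% for the coding genes that fell, 43.5% for those that rose and 43.7% for those not called. In 4 equal groups of genes by that GC content, from lowest to highest, 8.15%, 5.55%, 3.64% and 2.39% of genes fell, and 5.99%, 5.07%, 5.69% and 5.25% rose. Among genes with a mean of at least 10 CPM the medians were closer, 39.8%, 42.3% and 41.7%. Without the oocyte list the falling genes had a median of 39.8%. These are shares over genes, which are no independent replicates, and they carry no test. For promoter base composition only 77.96% of the higher and 79.49% of the lower coding genes had an entry, under the 80% needed, so that check is void.

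The separated embryos give the same stage difference in other embryos, with the counts of sister blastomeres summed and in the same fit, which shares 1 estimate of the spread. Batch 2 holds only separated 4-cell embryos 6 and 7, and batch is a term of the fit. The fold change of this contrast therefore rests on separated 4-cell embryos 2, 3 and 4 against 5 separated 2-cell embryos. There 904 genes (6.4%) were higher and 664 (4.7%) lower at the 4-cell stage. Of the 764 genes higher in intact embryos 415 were called higher again, which is 54.3% of the intact and 45.9% of the separated list. Of the 705 lower genes 419 were called lower again, 59.4% and 63.1% of the lists. No higher gene was called lower there, and 2 lower genes were called higher. The direction was the same for 724 of the 764 higher and 700 of the 705 lower genes. Several genes named above were not called in separated embryos, which is stated at the gene for some of them only. Rises not called there include Mat2a, Atg14, Rb1cc1, Tax1bp1, Eef2, Eef1a1, Bdp1, Exosc2, Grn, Cdt1, Slc12a2 and Slc25a3. Falls not called there include Rnf2, H2az2 and mt-Nd2. Each of these kept its direction. A test of the difference between the stage effects called 0 of 14119 genes (0%) with edgeR, 1228 of which had an unadjusted p under 0.05, while DESeq2 called 521 and limma voom 2. Of the lists in separated embryos, initiation factors had 7 higher and 0 lower, mitochondrial ribosomal proteins 12 higher and 1 lower, the lysosome list 8 higher and 1 lower, RNA decay 0 higher and 8 lower and oocyte-enriched genes 0 higher and 38 lower. Other lists did not repeat: in separated embryos actin and its regulators had 2 higher and 0 lower, tubulins and microtubule proteins 2 higher and 2 lower, Mediator 2 higher and 0 lower, RNA polymerase II 2 higher and 3 lower, BMP signalling 3 higher and 3 lower, the TCA cycle 1 higher and 1 lower and SR factors 2 higher and 2 lower. For solute carriers the median was 0.01, against 1.03 in intact embryos. One-carbon and amino acid metabolism had 3 higher and 2 lower, DNA replication 3 and 2, and the RNA exosome 1 and 2. Nuclear pore and transport genes had 5 higher and 3 lower, with a median of 0.41 against 0.99 in intact embryos. Histone methylation and Polycomb had 5 higher and 6 lower.

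**Figure D5:**
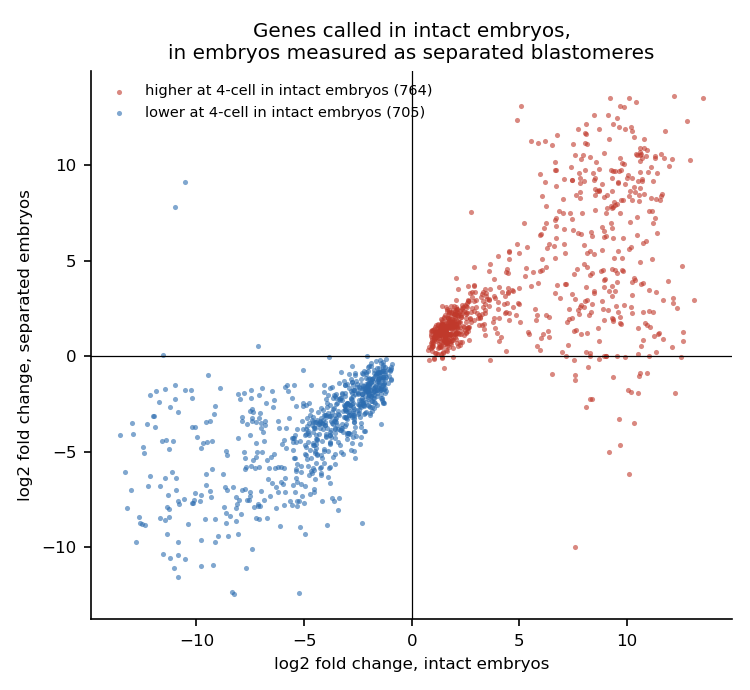
Log2 fold change in separated embryos (y axis) against that in intact embryos (x axis) for the 764 higher (red) and 705 lower (blue) genes of the intact comparison. 724 red points lie above 0 and 700 blue points below 0 on the y axis.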

How the data were processed

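Per the submitters' processing notes, the tools were Trim Galore 0.6.10 for trimming, STAR 2.7.3a and RSEM 1.2.28, with the GRCm38 (mm10) build; the annotation and strandedness are not given in the sources used here. The authors deposited expected counts per gene, which were rounded to whole numbers. Counts of the blastomeres of a separated embryo were summed, giving 19 embryos.

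The test was edgeR 4.0.16 (R 4.3.3), quasi-likelihood F-test, TMM scaling, filterByExpr (14119 genes), 4 groups and batch, all embryos in 1 fit, Benjamini-Hochberg at 0.05. CPM are TMM-normalised. An SE was taken as the size of the log2 fold change divided by the root of its F statistic. In simulated data of this comparison, 50 of 14119 genes were changed at each fold, drawn at random over all levels. Of those changed 2, 4, 16 and 64-fold, 0%, 6%, 24% and 32% were recovered. Fewer genes were changed there than were called in the data, which makes the adjustment stricter, so these shares may be too low. Many changes may still go uncalled. Gene positions and classes are from GENCODE M21. The comparison and the 61 lists were chosen with earlier results of these data known.

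Named genes are called genes with an established symbol: the 12 largest rises and falls of mean CPM and the next 10 by p in each direction, both without overlap of embryos, and up to 3 of each list by p; Obox8, Tcl1b2 to Tcl1b5 and the Fbxw genes were added after their values were seen, and genes that did not pass are named with their values. Some genes under this rule are not reported here. Alternatives were other scaling and filters, the intact embryos alone, a replicate block, batch 2 left out, thinned counts, DESeq2 1.42.0, limma 3.58.1 voom and each embryo left out.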

Additional observations from a re-analysis of the deposited data

Results flagged for a closer look

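Of 272 groups of 4 or 5 embryos looked at for the genes named above, 19 (6.99%) held an embryo that stood apart. That is, its gap to the nearest other embryo, over the range of the group, passed Dixon's 95% value. Chance gives about 1 in 20 for normally distributed values, which CPM with zeros need not be. At the 2-cell stage, embryo 1 stood apart for Idh3b (0.138 CPM), which is 1 count against 0 in the other embryos. At the 2-cell stage, embryo 2 stood apart for Dut (863 CPM), Fars2 (345 CPM), Fbxw16 (200 CPM), Mgst3 (481 CPM) and Ppp1r15a (109 CPM). At the 2-cell stage, embryo 3 stood apart for Ubb (976 CPM). At the 2-cell stage, embryo 4 stood apart for Eef1a1 (89.6 CPM) and Odc1 (74.4 CPM). At the 4-cell stage, embryo 1 stood apart for Bdp1 (107 CPM), Obox7 (10.1 CPM) and Prdx2 (113 CPM). At the 4-cell stage, embryo 3 stood apart for Prdx1 (474 CPM). At the 4-cell stage, embryo 4 stood apart for Cdc6 (57.9 CPM), Ifitm3 (0.489 CPM), Slc12a2 (440 CPM) and Tbca (208 CPM). For Ifitm3 this is 2 counts against 0 in the other embryos. At the 4-cell stage, embryo 5 stood apart for Lef1 (6.59 CPM) and Tcl1b5 (4.64 CPM).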

How the results depend on the processing

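The number of genes called between the intact stages was 1469, and 1515 with DESeq2's size factors, 964 without the filter on low counts, 1342 among genes of at least 10 CPM, 1382 with the intact embryos alone, 1223 without batch 2 and 1774 after thinning. For these settings in the order given, 46.7%, 44.4%, 36.2%, 38%, 41.5% and 50.8% of the calls were higher, against 52% of the 1469. DESeq2 called 3047 and limma voom 2845, of which 41.7% and 64.3% were higher. The causes of these differences were not tested. Leaving out single embryos gave 798 to 1431 calls, the fewest without 4-cell embryos 5 (798), 3 (810) and 1 (898). With the replicate number as a block 737 genes were called between intact stages, 711 between separated stages and 415 in both. The labels do not say what a replicate number stands for. Deviations from the stage mean correlated at -0.006 to 0.031 between same-numbered embryos, and 1 of 4 correlated best with its own number. No pairing was seen in these deviations, but they cannot exclude that embryos of a number share a litter or a day. For separated stages DESeq2 called 3220, and 1732 intact calls were called again. The test of unlike stage differences, whose alternatives were added after seeing the data, gave 521 calls with DESeq2 and 2 with limma voom. Of the 191 genes the naming rule gave, 99 were called in all 18 alternatives and 152 in the 9 fits that left out 1 embryo. A list median counts as moved if it shifted by at least the SD between embryos of the list's log2 summed level. Of the 61, 43 moved with limma voom and 32 among genes of at least 10 CPM. With the replicate block 29 moved, with the intact embryos alone 26, and without the filter on low counts 6. In fits that left out 1 embryo 141 medians moved and 408 did not. The median over all genes was 0.58 with limma voom and -0.24 without 4-cell embryo 4. Changes of 4-fold or less were seldom recovered in simulated data.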
